A study of Mus musculus with 6 samples.

Results

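Embryonic globin genes and the genes that regulate primitive erythroid development were measured in whole embryos that carried or lacked the iso allele of Zic2. The set held 10 genes, taken by gene symbol: the globin genes Hbb-bh1, Hbb-y, Hba-x and Hba-a1, the haem synthesis gene Alas2, the transcription factor genes Gata1, Klf1, Tal1 and Nfe2, and the receptor gene Epor. They were read by 13 of the 45281 probes on the array, and they are 10 of the 19057 genes that the platform annotation named. The array was an Illumina bead array, run from total RNA with biotin as the label. Zic2 encodes a zinc finger transcription factor, and the study asked which transcripts differ in embryos without its normal product around the time when left and right sides are set. Embryos came from intercrosses of Zic2 iso/+ mice on the C3H/HeH strain, and were harvested at E8.0 to E8.5. The iso allele carries an ENU-induced premature stop codon in Zic2. The study detected Zic2 mRNA in mutant embryos and proposes that this transcript may escape decay. In the study's methods the mutated stretch was C57BL/6J-derived, bred onto C3H/HeH, and wildtype littermates served as controls. There were 3 pools of Zic2 iso/iso embryos and 3 pools of wildtype (+/+) embryos, each pool combining 8 stage-matched whole embryos. Each pool is 1 sample, so the p-values set a genotype difference or a correlation against variation between these pools, not between single embryos. No p-value here tests whether the spread differed between the genotypes.

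Primitive erythroid cells are the first blood cells of the mouse embryo. They arise in the blood islands of the yolk sac, enter the circulation once the heart begins to beat, and carry haemoglobin built from embryonic chains, ζ from Hba-x on the α side and βh1 and εy from Hbb-bh1 and Hbb-y on the β side. The α chain of Hba-a1 is made in both embryonic and adult red cells, whereas the adult β chains of Hbb-bs and Hbb-bt dominate in definitive red cells. Erythroid globin genes are bound and activated by GATA1, by KLF1 at CACCC boxes and by complexes that contain TAL1, and NF-E2 acts at the distant control region of the β cluster.

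The positions and promoters of the globin genes are given first because the levels below separate these genes into groups. In the RefSeq annotation of GRCm38.p6, Hbb-y lay at chr7:103851754-103853207 and Hbb-bh1 at chr7:103841638-103843162, beside the adult genes Hbb-bs (chr7:103826523-103827928) and Hbb-bt (chr7:103812524-103813923). On the α side, Hba-x lay at chr11:32276600-32278116 and Hba-a1 at chr11:32283672-32284486. The 250 bases before the annotated start are printed 5′ to 3′ on the strand of the gene, for 2 embryonic genes (Hbb-y, minus strand of chr7:103853208-103853457, and Hba-x, plus strand of chr11:32276350-32276599) and 2 genes of the other group (Hba-a1, plus strand of chr11:32283422-32283671, and Hbb-bs, minus strand of chr7:103827929-103828178). Capitals mark 3 motifs searched on both strands: the GATA motif in any of 4 spellings (AGATAA or TGATAA or AGATAG or TGATAG, or the reverse complement), the CACCC box (or GGGTG) and the CCAAT box (or ATTGG).
Hbb-y: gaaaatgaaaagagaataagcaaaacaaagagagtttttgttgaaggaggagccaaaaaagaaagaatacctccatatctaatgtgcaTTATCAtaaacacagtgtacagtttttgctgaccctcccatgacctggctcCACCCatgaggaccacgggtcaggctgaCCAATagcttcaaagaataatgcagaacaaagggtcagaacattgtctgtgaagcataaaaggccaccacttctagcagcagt
Hba-x: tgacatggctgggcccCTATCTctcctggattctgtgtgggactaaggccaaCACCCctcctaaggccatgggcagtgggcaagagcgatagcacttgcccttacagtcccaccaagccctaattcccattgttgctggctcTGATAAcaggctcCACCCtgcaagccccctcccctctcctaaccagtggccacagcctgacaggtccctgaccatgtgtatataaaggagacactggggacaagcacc
Hba-a1: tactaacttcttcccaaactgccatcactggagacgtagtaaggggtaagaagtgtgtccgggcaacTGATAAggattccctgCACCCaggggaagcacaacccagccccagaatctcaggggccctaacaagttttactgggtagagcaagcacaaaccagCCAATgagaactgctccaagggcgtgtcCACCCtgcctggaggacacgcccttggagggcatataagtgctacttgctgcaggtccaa
Hbb-bs: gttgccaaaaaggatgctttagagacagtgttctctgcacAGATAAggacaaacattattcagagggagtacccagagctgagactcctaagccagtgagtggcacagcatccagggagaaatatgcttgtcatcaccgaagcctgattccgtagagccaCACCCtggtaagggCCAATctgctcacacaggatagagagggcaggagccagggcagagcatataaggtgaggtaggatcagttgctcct
The GATA motif occurred in these letters in 26.5% of 32851 promoters searched in the same way, the CACCC box in 52% and the CCAAT box in 33.8%, and 3.92% held all 3. The promoters of Hbb-y, Hba-a1 and Hbb-bs each held all 3 motifs, with 1 GATA motif, 1 CCAAT box and 1, 2 and 1 CACCC boxes in that order. The promoter of Hba-x held 2 GATA motifs and 2 CACCC boxes, and none of these CCAAT letters. That of Hbb-bt, which is not printed, held 3 CACCC boxes and 3 CCAAT boxes, and no GATA motif. These are matches of letters in a short window and do not show binding. Among the other members, Klf1 held all 3 motifs, Alas2 and Epor held the GATA motif and the CACCC box, and Gata1 held only the CACCC box. Tal1 had 2 annotated starts, 1 of them with a GATA motif and a CACCC box and the other with none of the motifs.

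Signals were compared as log2 intensities after quantile normalisation, without subtraction of background. Of the 13 member probes, 8 lay above a background level of 7.47, the 95th percentile of 1608 probes for genes taken as silent in embryos (odorant and pheromone receptors, hair keratin-associated proteins, β-defensins), in the mean of the 6 pools, and each of those probes stood for a different gene. Gata1 and Nfe2 did not reach that level. Of the whole array, 10439 genes did. Correlations between pools over all probes ran from 0.993 to 0.995, and the median signal before normalisation ran from 154 in Zic2 iso/iso pool 3 to 187 in Zic2 iso/iso pool 1, with 158 to 164 in the wildtype pools. Zic2 itself read 7.64, 7.57 and 8.01 in the Zic2 iso/iso pools and 8.27, 8.06 and 8.00 in the wildtype pools, and since the allele changes a codon its transcript level says little about the labels. Foxd4, a forkhead factor gene, was lower by 2.49 on the log2 scale in the Zic2 iso/iso pools, with no overlap between the genotypes.

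Hbb-bh1, which encodes the βh1 chain, read 12.87, 10.75 and 9.04 in Zic2 iso/iso pools 1, 2 and 3, and 11.55, 11.74 and 12.17 in wildtype pools 1, 2 and 3. The Zic2 iso/iso pools lay on both sides of all 3 wildtype pools: pool 1 was the highest of the 6, and pools 2 and 3 were the lowest. From the lowest to the highest Zic2 iso/iso pool the signal spanned 14.3-fold, against 1.53-fold among the wildtype pools. Before normalisation the intensities were 9259, 1710 and 465 in the Zic2 iso/iso pools, a span of 19.9-fold, and 2751, 3561 and 4539 in the wildtype pools, a span of 1.65-fold. The SD was 1.92 over the Zic2 iso/iso pools and 0.31 over the wildtype pools (n = 3 each). Among all 45281 probes, that of Hbb-bh1 had the largest SD over the Zic2 iso/iso pools, whereas it ranked 165 over the wildtype pools. The members were chosen with the wide spread of globins between Zic2 iso/iso pools known, so the SD ranks here and below are descriptions. In pools of whole embryos, fewer erythroid cells and less transcript per cell cannot be told apart.

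The mean difference for Hbb-bh1 was −0.93 on the log2 scale (Zic2 iso/iso minus wildtype, SE 0.64, 95% interval −2.32 to 0.45), and it did not pass the test (limma adjusted p = 0.93; exact two-sided permutation p = 0.5, where 3 pools against 3 cannot go below 0.1). Its value turned on single pools, since it was −1.93 without Zic2 iso/iso pool 1 and −0.01 without pool 3, and neither passed the test. The SEs, intervals and p-values of limma rest on a variance drawn toward that of all probes. For genes with a spread as wide as that of Hbb-bh1 or Hba-x, the SE and interval are therefore narrower than their own pools alone would give. A second probe for Hbb-bh1 read near background, at 7.48, 7.65 and 7.44 in the Zic2 iso/iso pools and 7.31, 7.47 and 7.43 in the wildtype pools. This dim probe did not show the span of the bright one, and the mean of the pair gave a difference of −0.41 (adjusted p = 0.95).

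Hba-x, which encodes the ζ chain, read 10.58, 8.65 and 7.49 in Zic2 iso/iso pools 1, 2 and 3, and 9.41, 9.76 and 9.95 in wildtype pools 1, 2 and 3. The 6 pools fell in exactly the order seen for Hbb-bh1, with Zic2 iso/iso pool 1 above all wildtype pools and pools 2 and 3 below them. In Zic2 iso/iso pool 3 the signal was just above background. The span was 8.55-fold over the Zic2 iso/iso pools and 1.46-fold over the wildtype pools (SD 1.56 and 0.27), and the SD over the Zic2 iso/iso pools ranked 2 of all probes, next to Hbb-bh1. The mean difference was −0.80 (SE 0.52, 95% interval −1.93 to 0.33, limma adjusted p = 0.92, exact permutation p = 0.5). Without Zic2 iso/iso pool 1 it was −1.62 with an adjusted p of 0.066, the lowest adjusted p of any member under any setting tried, and without pool 3 it was −0.09.

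Hbb-y, which encodes the εy chain, was dim on this array. Its brighter probe read 7.96, 7.38 and 7.08 in the Zic2 iso/iso pools and 7.54, 7.53 and 7.51 in the wildtype pools. Again Zic2 iso/iso pool 1 was highest, pools 2 and 3 were lowest, and the wildtype pools lay between them, within 0.03 of each other. The SD over the Zic2 iso/iso pools was 0.45, rank 33 of all probes, and the mean difference was −0.05 (95% interval −0.40 to 0.29, adjusted p = 0.99). Since background was not subtracted, spans of dim probes are compressed. With normexp background correction the span over the Zic2 iso/iso pools was 2.80-fold for Hbb-y, 13.6-fold for Hba-x and 16.4-fold for Hbb-bh1, and the order of the pools was the same for each. The second Hbb-y probe lay below background on average and ordered the pools differently, with readings of 7.52, 7.17 and 7.11 in the Zic2 iso/iso pools and 7.42, 7.09 and 7.62 in the wildtype pools.

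**Figure D1:**
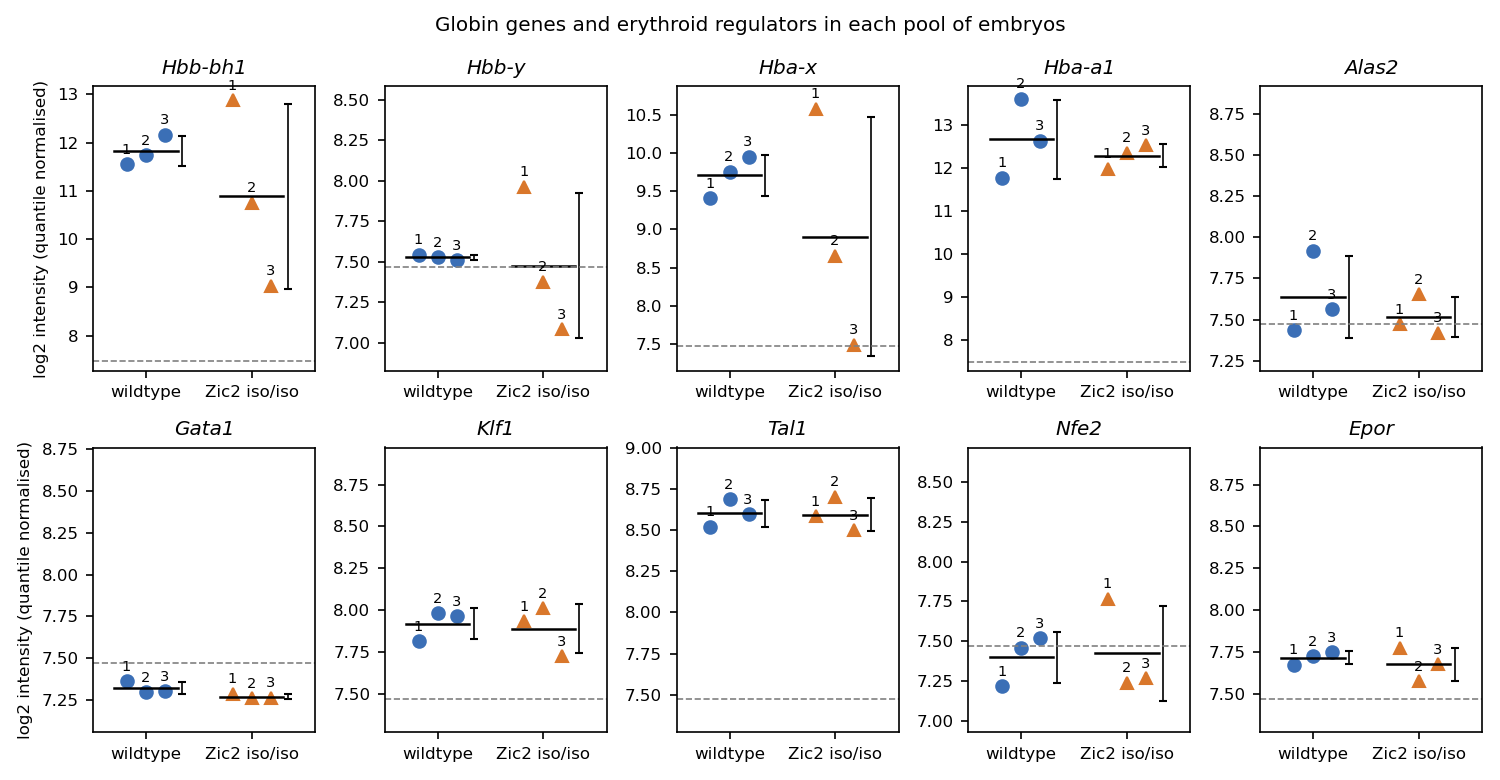
Log2 intensity (quantile normalised) of the brightest probe of each of the 10 genes in 3 wildtype pools (circles) and 3 Zic2 iso/iso pools (triangles), numbered by pool, with the mean (horizontal line), the SD (bar beside the points) and the background level of 7.47 (dashed line); vertical scales differ between panels. For Hbb-bh1, Hbb-y and Hba-x, Zic2 iso/iso pool 1 lies above and pools 2 and 3 lie below all wildtype pools.

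Hba-a1, which encodes the α chain, did not follow the embryonic genes. It read 11.98, 12.36 and 12.52 in Zic2 iso/iso pools 1, 2 and 3, and 11.77, 13.60 and 12.63 in wildtype pools 1, 2 and 3. Here the widest pair was within the wildtype group, with wildtype pool 2 highest and wildtype pool 1 lowest, and the Zic2 iso/iso pools lay between wildtype pools 1 and 3. The span was 3.57-fold over the wildtype pools and 1.46-fold over the Zic2 iso/iso pools, with SDs of 0.92 and 0.28, and the SD over the wildtype pools ranked 7 of all probes. The mean difference was −0.38 (SE 0.32, 95% interval −1.07 to 0.31, adjusted p = 0.95), and it was 0.09 without wildtype pool 2. The probe may also read the near-identical neighbouring copy Hba-a2, which had no probe matched by name.

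The adult β globin genes Hbb-bs and Hbb-bt, which are no members, were set beside Hba-a1 after their values were seen to follow its pattern. Hbb-bs read 12.17, 12.69 and 12.61 in the Zic2 iso/iso pools and 11.88, 13.76 and 12.61 in the wildtype pools at its brightest probe, and Hbb-bt read 11.90, 12.72 and 12.43, and 11.88, 13.63 and 12.70. Of the 10 probes for these near-identical copies, 9 were above background, and among those 9 wildtype pool 2 was highest in every one and wildtype pool 1 was lowest in 8. Over the 6 pools, Pearson's r of those 9 probes ran from 0.92 to 0.99 with Hba-a1 and from −0.11 to 0.08 with Hbb-bh1. Their genotype differences ran from −0.46 to −0.26, and none passed the test. The probe of Hbb-bt at background (mean 7.44) was also highest in wildtype pool 2, with an r of 0.86 with Hba-a1 and a difference of −0.06. Hbb-b2, a further adult β globin symbol read by a dim probe, did not follow them, with 7.38, 7.77 and 7.96 in the Zic2 iso/iso pools and 7.34, 7.82 and 7.56 in the wildtype pools. It was highest in Zic2 iso/iso pool 3 and differed by 0.13 (adjusted p = 0.96), and its r was 0.65 with Hba-a1 and −0.76 with Hbb-bh1. Hbb-bs and Hbb-bt cannot be separated from each other here, because a probe of either may read both transcripts.

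**Figure D2:**
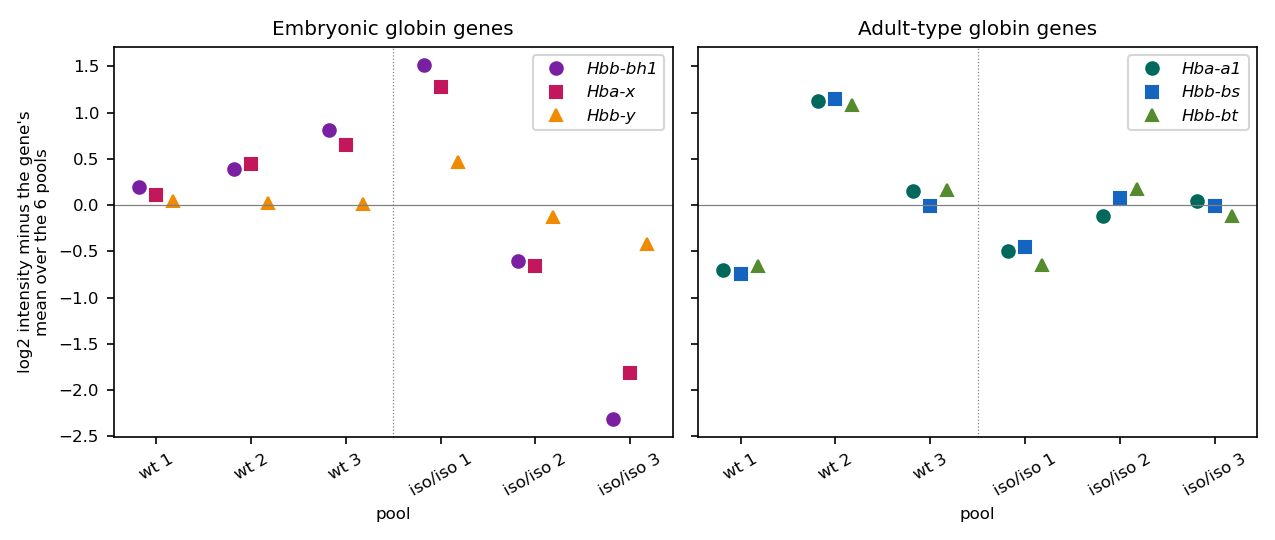
Log2 intensity of each globin gene in each pool minus the mean of that gene over the 6 pools, for the embryonic genes Hbb-bh1, Hba-x and Hbb-y (left) and for Hba-a1, Hbb-bs and Hbb-bt (right); wt marks wildtype pools and iso/iso marks Zic2 iso/iso pools, which are numbered and have no order. The embryonic genes are highest in Zic2 iso/iso pool 1 and lowest in Zic2 iso/iso pool 3, whereas the genes on the right are highest in wildtype pool 2.

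The likeness of the members was described by Pearson's r over the 6 pools, with an exact permutation p, for the 45 pairs of members and 6 pairs with other genes. Hbb-bh1 and Hba-x gave r = 0.995 (exact permutation p = 0.0014, adjusted over the 51 pairs p = 0.071) and a Spearman's rho of 1.00 (p = 0.0028 by exact permutation, adjusted p = 0.071). Without Zic2 iso/iso pools 1 and 3, the 2 pools farthest from the median, r was 0.99. Hbb-bh1 and Hbb-y gave r = 0.93 (exact permutation p = 0.017, adjusted p = 0.12). None of the 51 pairs passed the adjusted threshold. Hbb-bh1 and Hba-a1 gave an r of −0.09. The pattern of the embryonic genes was therefore held by Hba-x and by the brighter probes of Hbb-bh1 and Hbb-y. That of Hbb-y was below background in Zic2 iso/iso pools 2 and 3. Hba-a1 did not hold the pattern, and its r with Hbb-bs was 0.98 (0.84 without wildtype pools 1 and 2).

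**Figure D3:**
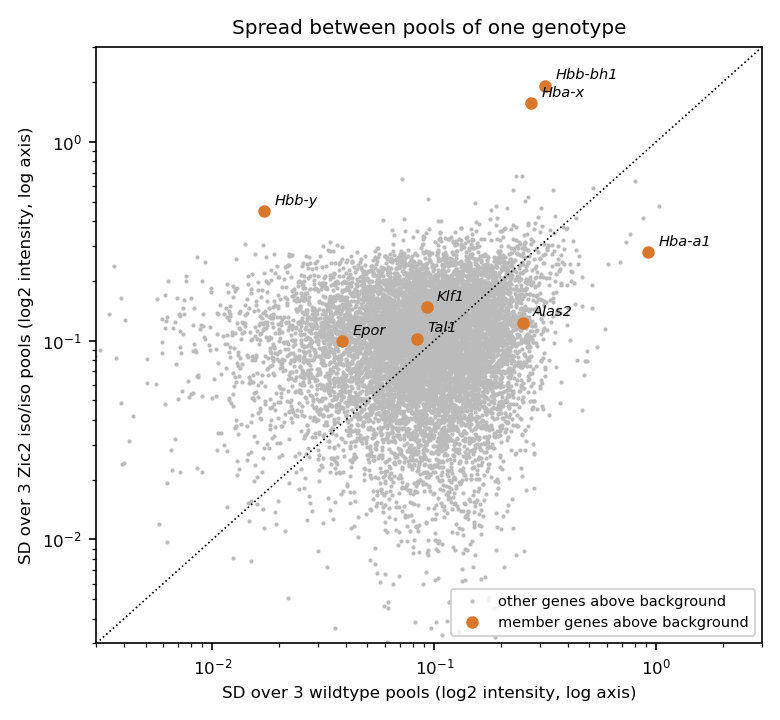
SD over the 3 wildtype pools (horizontal) against the SD over the 3 Zic2 iso/iso pools (vertical), both in log2 intensity on log axes, for the members above background (orange) and all other genes above background (grey); the dotted line marks equal SDs. Hbb-bh1 (0.31 and 1.92) and Hba-x (0.27 and 1.56) stand at the top, and Hba-a1 (0.92 and 0.28) at the far right. The members were chosen with the spread of globins between Zic2 iso/iso pools known.

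Alas2, the erythroid form of the first enzyme of haem synthesis, read 7.47, 7.65 and 7.42 in the Zic2 iso/iso pools and 7.43, 7.92 and 7.56 in the wildtype pools. Wildtype pool 2 was highest, as for Hba-a1, and the groups overlapped. Alas2 was above background in only 3 pools, Zic2 iso/iso pool 2 and wildtype pools 2 and 3. The mean difference was −0.12 (SE 0.11, 95% interval −0.36 to 0.11, adjusted p = 0.95). Its r with Hba-a1 was 0.86, and 0.15 once wildtype pools 1 and 2 were left out, so that the likeness rested on those pools. Its r with Hbb-bh1 was 0.20.

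Of the regulators, Klf1, Tal1 and Epor spanned less over the Zic2 iso/iso pools than Hbb-bh1 and Hba-x did, and Nfe2, near background, spanned more than those 3. Klf1, whose product activates β-like globin genes through CACCC boxes, read 7.93, 8.01 and 7.73 in the Zic2 iso/iso pools and 7.81, 7.98 and 7.96 in the wildtype pools. Zic2 iso/iso pool 3 was lowest and wildtype pool 1 next to it, with 0.28 between the lowest and the highest of the 6 pools. The mean difference was −0.03 (95% interval −0.21 to 0.15, adjusted p = 0.99). Tal1, which encodes a basic helix-loop-helix factor needed for the formation of all blood lineages, read 8.58, 8.70 and 8.498, against 8.52, 8.69 and 8.60 in the wildtype pools. The 6 pools of Tal1 fell in the same order as those of Klf1, and the mean difference was −0.01 (95% interval −0.17 to 0.15). The r of Klf1 and Tal1 was 0.91 (exact permutation p = 0.011, adjusted p = 0.12). Without normalisation between arrays both genes changed sign (0.051 and 0.084) and were highest in Zic2 iso/iso pool 1, the array with the highest median signal.

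Epor, the erythropoietin receptor gene, read 7.78, 7.58 and 7.68 in the Zic2 iso/iso pools and 7.68, 7.73 and 7.75 in the wildtype pools. The groups overlapped, and the mean difference was −0.04 (95% interval −0.19 to 0.11). Nfe2, which encodes the erythroid subunit of NF-E2, read 7.77, 7.24 and 7.27 in the Zic2 iso/iso pools and 7.22, 7.46 and 7.52 in the wildtype pools. It was above background in Zic2 iso/iso pool 1 and wildtype pool 3 only, and its mean difference was 0.03 (95% interval −0.25 to 0.30). Its highest pool was that of the embryonic globin genes, and its SD over the Zic2 iso/iso pools, 0.297, ranked 265 of all probes. Gata1, the defining transcription factor gene of the erythroid lineage, read between 7.26 and 7.36 on its brighter probe and between 7.09 and 7.30 on the other. No pool rose above background for either probe, so that no level of Gata1 could be given, and its values say nothing of a difference between the genotypes.

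Set against the 3.83 that Hbb-bh1 spanned on the log2 scale and the 3.10 of Hba-x over the Zic2 iso/iso pools, Hbb-y spanned 0.88 there, Nfe2 0.53, Klf1 0.28, Tal1 0.20, Epor 0.20 and Gata1, at background, 0.03. With normexp correction, which widens the spans of dim genes, Nfe2, Klf1, Tal1 and Epor spanned 0.88, 0.41, 0.25 and 0.31, and Hbb-bh1, Hba-x and Hbb-y 4.03, 3.77 and 1.48. The median gene above background spanned 0.19 over the Zic2 iso/iso pools. The r with Hbb-bh1 was 0.61 for Klf1, 0.30 for Tal1, 0.61 for Epor and 0.73 for Nfe2, and 0.42 for Gata1 at background. That of Klf1 was −0.21 without Zic2 iso/iso pools 1 and 3, so that it rested on those pools, and that of Tal1 was −0.44. Without the same pools, r was 0.98 for Epor, 0.78 for Nfe2 and 0.44 for Gata1. None of the coefficients over all 6 pools passed the adjusted threshold. The dimness of the regulators limits the span that their probes can show.

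None of the 13 member probes passed an adjusted p of 0.05 (smallest 0.92), against 20 of all 45281 probes, or 0.0442%, of which 18 were lower and 2 were higher in the Zic2 iso/iso pools. At an unadjusted p under 0.05 the count was 0 of 13 members, and 6.02% of all probes. The genotypes did not overlap for 1 member probe, that of Gata1 at background, against 10.6% of all probes.

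**Figure D4:**
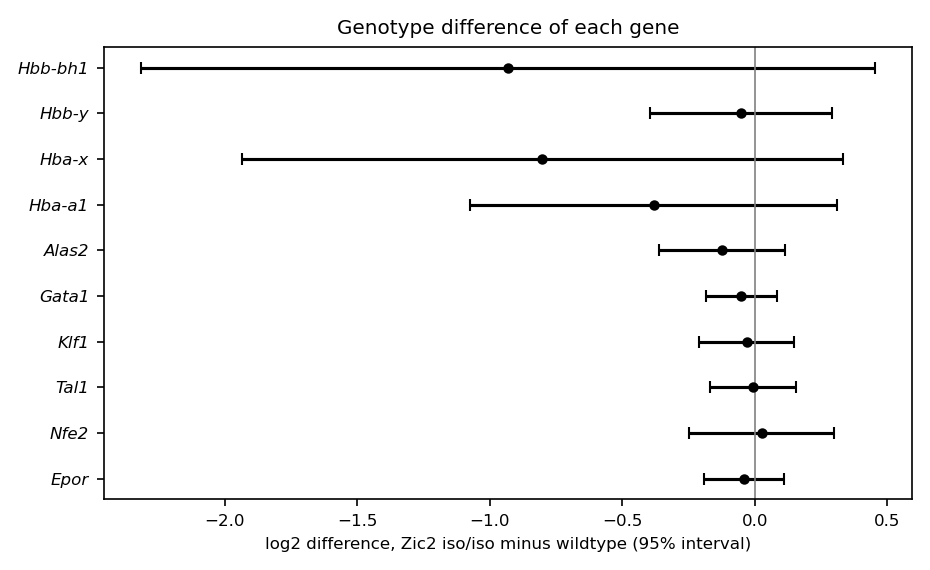
Mean log2 difference between 3 Zic2 iso/iso and 3 wildtype pools for each of the 10 genes (points) with its 95% interval from limma (bars); the vertical line marks no difference. All 10 intervals include 0, those of Hbb-bh1 (−2.32 to 0.45) and Hba-x (−1.93 to 0.33) being the widest. The variance is drawn toward that of all probes, so the bars of these 2 genes are narrower than their own pools alone would give.

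The wider pathway was described by gene lists. None of the genes on any list passed the test, neither higher nor lower. Of 11 other globin genes, 8 were measured and 6 were above background, among them Hbb-bs, which had the largest range (1.89), and Hbb-bt, which had the largest difference (−0.39, adjusted p = 0.95). Of 23 further genes of haem synthesis and iron handling, 22 were measured and 20 were above background, with a median difference of −0.02 among the latter. Cpox, which encodes an enzyme of haem synthesis, differed most (−0.26, adjusted p = 0.62). The genotypes did not overlap for Cpox, as for 2 of the 22 genes measured (10.6% of all probes). Of 31 genes of the red cell membrane and red cell enzymes, 26 were measured and 15 were above background, with a median difference of −0.05. Car2, a carbonic anhydrase gene of red cells and other tissues, differed most at −0.23 (adjusted p = 0.68), and Rhag, of the Rh complex of the red cell membrane, had the largest range, 0.42. Slc4a1, which encodes the red cell anion exchanger band 3, lay between 7.23 and 7.48. This defining marker of red cells was therefore at or near background in every pool, as was Gata1.

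Of 27 genes of other blood transcription factors, 26 were measured, 21 were above background and the median difference was 0.03. Gata2, a factor of blood progenitors, read 9.57, 9.34 and 9.39 in the Zic2 iso/iso pools and 9.17, 9.24 and 9.11 in the wildtype pools. The groups did not overlap, as for 4 of the 26 genes measured (10.6% of all probes), and the difference of 0.26 did not pass the test (adjusted p = 0.58). Lmo2, which encodes a bridging partner of TAL1, had the largest range and read 11.12 in Zic2 iso/iso pool 1 and between 10.65 and 10.77 in all other pools. Of 14 erythroid signalling genes, 13 were measured and 10 were above background. Kit, the receptor gene of stem cell factor, differed most among them at 0.25 (adjusted p = 0.76). Across all genes above background the median difference was −0.00693.

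Lists for other tissues of the embryo also differed between pools, but the heart and yolk sac sums did not follow the pool order of Hbb-bh1. The part of these tissues in the globin levels was not tested. In the 10 heart muscle genes above background of 15 measured, Zic2 iso/iso pool 3 was lowest in 9. The 15 intensities summed to 16729, 18413 and 10061 in Zic2 iso/iso pools 1, 2 and 3, and from 18355 to 23674 in the wildtype pools. Actc1, cardiac α-actin, read 11.75, 12.15 and 10.83 in the Zic2 iso/iso pools and 12.36, 11.95 and 12.40 in the wildtype pools (difference −0.66, adjusted p = 0.75). Its r with Hbb-bh1 was 0.68, and 0.31 without Zic2 iso/iso pools 1 and 3. The pool with the lowest Hbb-bh1 was thus also the pool with the lowest heart signal, and the pool with the highest Hbb-bh1 was below all 3 wildtype pools for Actc1.

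The yolk sac and visceral endoderm list separated the pools at the other end. Of its 17 genes above background of 18 measured, Zic2 iso/iso pool 1, with the highest Hbb-bh1, was highest in 12, and wildtype pool 1 was lowest in 12. Over the whole list the sums were 91898, 63764 and 71247 in Zic2 iso/iso pools 1, 2 and 3, which is not the order of Hbb-bh1, and 59503, 75161 and 77236 in wildtype pools 1, 2 and 3. Afp, the fetal α-fetoprotein gene, read 8.67, 8.17 and 8.01 in the Zic2 iso/iso pools and 7.78, 7.88 and 8.28 in the wildtype pools. Its r with Hbb-bh1 was 0.48, and 0.03 without Zic2 iso/iso pools 1 and 3. Apob, the apolipoprotein B gene, was higher by 0.50 with no overlap, and did not pass the test (adjusted p = 0.15). The genotypes did not overlap for 2 of the 18 genes measured (10.6% of all probes). How much yolk sac was harvested with each embryo is not given in the sources used here.

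Endothelium shares its origin with primitive blood. Its 18 genes were all measured, 17 were above background, and the sums were 13724 to 14894 over the Zic2 iso/iso pools and 14711 to 15879 over the wildtype pools, with Zic2 iso/iso pool 3 lowest in 6 of the 17 genes. Emcn, which encodes endomucin, differed most at −0.39 (adjusted p = 0.69). Among 12 genes above background of the primitive streak and epiblast, which decline as development proceeds, Zic2 iso/iso pool 3 was highest in 6 and wildtype pool 3 was lowest in 7. The 15 genes measured summed to 26130, 28699 and 29212 in Zic2 iso/iso pools 1, 2 and 3. In wildtype pools 1, 2 and 3 they summed to 30406, 29561 and 25889, so that Zic2 iso/iso pool 3 was not the highest by sum. Nanog, a pluripotency gene, was higher by 0.56 in the Zic2 iso/iso pools with no overlap and an adjusted p of 0.084. The genotypes did not overlap for 4 of the 15 genes measured (10.6% of all probes).

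White cells come with definitive and adult blood, and their markers were counted because Hba-a1 followed the adult β globin genes. Of 12 white cell genes measured, 4 were above background, and all 12 summed to 2159, 2056 and 2481 in Zic2 iso/iso pools 1, 2 and 3, and to 2061, 2661 and 2164 in the wildtype pools. S100a8, a gene of neutrophils, read 8.59, 8.10 and 9.36 in the Zic2 iso/iso pools and 8.04, 9.64 and 8.71 in the wildtype pools. It was highest in wildtype pool 2 and lowest in wildtype pool 1, as was Hba-a1, with an r of 0.81 that fell to 0.35 without those pools. The list did not share this order as a whole. Of the 4 white cell genes above background, 2 were highest in wildtype pool 2, 1 in Zic2 iso/iso pool 2 and 1 in wildtype pool 1. Wildtype pool 1 was lowest in 2 of the 4. Of 14 megakaryocyte and macrophage genes, 3 were above background, with sums of 2203 to 2375 over the Zic2 iso/iso pools and 2217 to 2406 over the wildtype pools. Lyz1, a lysozyme gene, differed most on this list (−0.19, adjusted p = 0.93). Background was not subtracted, so genes at background enter this sum and that of the white cells and compress their spans. A list of 11 decidua and uterus genes, chosen after the values were seen, had 5 above background, and Prl8a2, a prolactin-family gene of the decidua, read 7.96, 8.64 and 8.39 in the Zic2 iso/iso pools and 7.92, 9.20 and 9.27 in the wildtype pools. The part of maternal blood or tissue in the levels of Hba-a1, Hbb-bs and Hbb-bt was not tested.

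**Figure D5:**
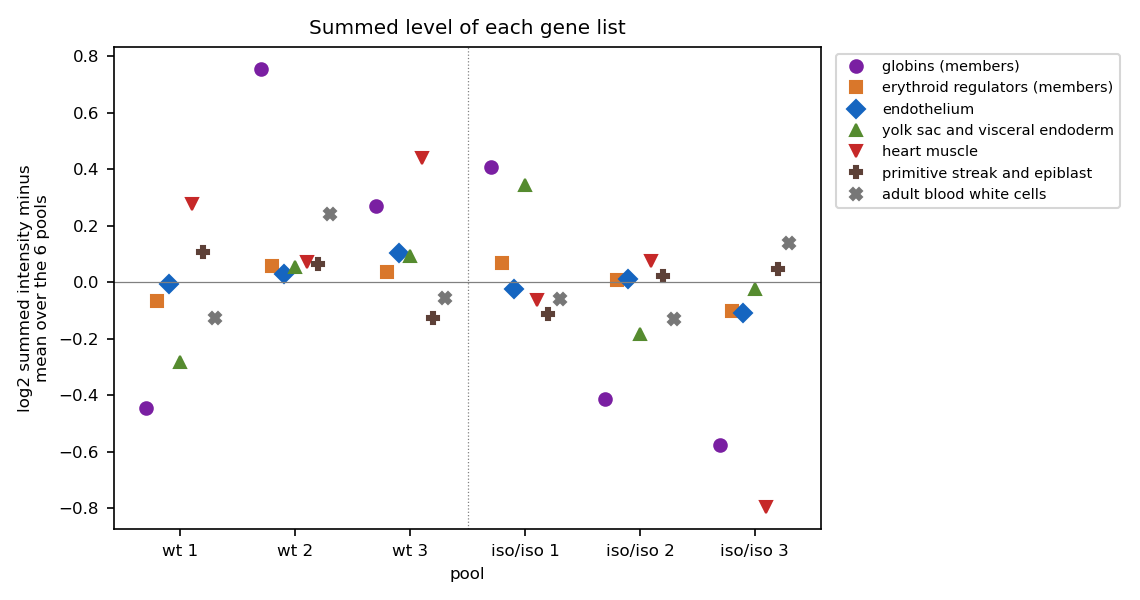
Log2 of the summed intensity of each gene list in each pool minus its mean over the 6 pools; wt marks wildtype pools and iso/iso marks Zic2 iso/iso pools, and every measured gene of a list enters its sum. Heart muscle is lowest in Zic2 iso/iso pool 3, the yolk sac list is highest in Zic2 iso/iso pool 1, and the erythroid regulators stay near 0 in all pools. Background was not subtracted and only 3 of the 5 regulators were above it, which limits how far their sum can move.

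Genes whose pattern was most like the mean of the 4 globin members were taken from 878 genes that were above background in every pool and spanned at least 0.5. That mean was 10.85, 9.78 and 9.03 in Zic2 iso/iso pools 1, 2 and 3, and 10.07, 10.66 and 10.57 in the wildtype pools, and it blends the pair of patterns above. The 10 most alike over the 6 pools were Mrps6 (r = 0.97), Fbxl4 (0.96), Cited4 (0.96), Sec11c (0.95), Pex19 (0.95), Dennd10 (0.94), Surf6 (0.92), Rian (0.92), Slc7a6 (0.92) and Myl7 (0.92). Of these, Myl7, which encodes an atrial myosin light chain, is on the heart list. For Hba-a1 alone, an order computed after the values were seen, S100a6 came first (r = 0.99), followed by Hbb-bs (0.98), Hbb-bt (0.97) and Tulp3 (0.96). For Hbb-bh1 alone, Dennd10 came first (r = 0.97), followed by Mon1a (0.96), Gm12657 (0.96) and Fbxl4 (0.95). These coefficients are descriptions over the same 6 arrays.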

How the data were processed

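Total RNA from 6 pools of whole embryos was measured on 1 Illumina bead array per pool. The deposited values were linear probe intensities, positive in every pool and not background-subtracted. The methods of the study name variance-stabilising normalisation and LIMMA, but the intensities deposited by the authors are not on that scale. The scanner software and its settings are not given in the sources used here.

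Intensities were floored at 1, log2 transformed and quantile normalised, and every probe was fitted with limma 3.58.1 in R 4.3.3 (genotype as the only factor, 2-sided, Benjamini-Hochberg adjustment over all 45281 probes, threshold 0.05). Single values were tested by exact permutation of the pools. A probe was above background when its mean over the pools exceeded the 95th percentile of 1608 probes for genes of sensory receptors, keratin-associated proteins and defensins. The brightest probe stood for a gene. Of the probes, 34885 were annotated to 1 gene, 18 to several and 10378 to none. The fit was tested on simulated data. Precision is limited by having 3 arrays for each genotype. With 1 array a pool, no technical batch was given in the labels.

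Named genes were the members, on each list any gene past the threshold and the genes above background with the largest difference and the largest range, and the 10 genes most like the globin mean. Other genes were named after their values were seen: Hbb-bs, Hbb-bt, Hbb-b2, Zic2, Foxd4, Slc4a1 and the genes like Hba-a1 or Hbb-bh1. The members and lists were chosen with earlier results of these data known, among them the wide spread of globins between Zic2 iso/iso pools. Promoters were taken from a RefSeq table of GRCm38.p6, in which Hbb-bh1 and Nfe2 were not matched. Alternatives were other normalisations, normexp correction with an offset of 50, leaving out dim probes, other variance priors, array weights, the replicate number as a block, probes averaged by gene, a threshold of 0.10 and leaving out each pool.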

Additional observations from a re-analysis of the deposited data

How the results depend on the processing

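No member passed the test under any of the 15 other settings or at a threshold of 0.10. Of 148 member differences recomputed, 132 kept their direction and 16 changed sign. Without normalisation between arrays, the differences were 0.038 for Hbb-y, 0.051 for Klf1, 0.084 for Tal1 and 0.037 for Epor, and with median centring 0.0025 for Klf1 and 0.035 for Tal1. Leaving out each pool in turn gave −0.29 to 0.15 for Hbb-y, −0.091 to 0.053 for Klf1, −0.061 to 0.041 for Tal1, −0.14 to 0.12 for Nfe2, −0.088 to 0.0089 for Epor, −0.83 to 0.086 for Hba-a1 and −0.23 to 0.016 for Alas2. It gave −1.93 to −0.0066 for Hbb-bh1 and −1.62 to −0.093 for Hba-x, which kept their sign. Of all probes, 20 passed, against 4 without normalisation, 11 with median centring, 31 with an intensity trend, 13 with probes averaged by gene and 34 at the threshold of 0.10, and 14 to 29 with a pool left out. The list genes that passed numbered 1 with normexp correction, 1 with the trend and 1 with the replicate block, in each case Nanog, and 0 to 1 with a pool left out (Apob without Zic2 iso/iso pool 2, Nanog without Zic2 iso/iso pool 3). The range of the globin mean was 1.82 over the Zic2 iso/iso pools (0.74 to 1.81 with a pool left out, lowest without pool 1) and 0.59 over the wildtype pools (0.092 to 0.59, lowest without pool 1). With probes averaged by gene these ranges were 1.28 and 0.54, and the difference of Hbb-bh1 was −0.41. Pools with the same number did not deviate together (r = −0.08, −0.01 and −0.07), so the numbers were not taken to pair them, and with the replicate block 17 probes and 0 members passed. The causes of these changes were not tested. Gata1 and Nfe2 gave no value with dim probes left out, and their signal near background limits what could be seen.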
